A study of Mus musculus with 6 samples.

Results

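Genes that drive and carry out cell division were examined in newborn mouse skin with a constitutively active form of Nrf2, a transcription factor that switches on antioxidant and detoxification enzymes. They are 36 genes taken by symbol for their known roles, with no measured value in the rule, and each is represented by the probe set with the highest mean log2 intensity over all arrays among those that carry its symbol. Of these, 35 were measured, out of 18193 genes on the array, with 78 probe sets in all. Ccnb1, the mitotic cyclin B1, was not matched to a probe set and is not analysed here. By role there were 11 genes of S phase and DNA replication, 18 of G2 and mitosis, 4 of the step from G1 to S phase (the cyclins Ccnd1, Ccne1 and Ccne2 and the kinase Cdk2), and 2 inhibitors of cyclin-dependent kinases (Cdkn1a and Cdkn1b).

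The samples were whole back skin of 6 female littermates on postnatal day 2.5, on a mixed FVB/N and C57BL/6 background. In 3 mice, K5cre-caNrf2 (tg/tg in the protocol, tg/g in the genotype field), the Cre recombinase is driven by the keratin 5 promoter, which is active in keratinocytes and not in most cells of the dermis. The other 3, K5cre-wt (tg/wt), also carry K5cre and are the controls, although the treatment field reads CaNrf2 for all 6. Each mouse gave 1 array, so the p-values measure the spread between mice of a single litter. Nfe2l2, the gene for Nrf2, read 775 ± 49.5 in control and 1200 ± 56.4 in caNrf2 skin (mean intensity with its SD, n = 3). The log2 difference was 0.63 with an SE of 0.07 (limma, adjusted p = 0.000736). Its other, dim probe set gave 0.16 ± 0.08, and whether either detects the transgene transcript was not determined. The tissue carried its defining markers, with 13145 and 12229 in caNrf2 and control skin for the keratin Krt14 and 14263 and 15023.5 for the collagen Col1a1.

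The arrays were made comparable before deposit, and their median intensity lay between 80.3 and 81.6. The upper quartile was nevertheless lower in caNrf2 (325 to 328) than in control arrays (334 to 341), and the lower quartile higher (24.9 to 25.4 against 23.8 to 24.3). The log2 ratio of the 3' to the 5' control probe set of Actb, a sign of RNA integrity, also differed. It was higher on every caNrf2 array (0.518 to 0.538) than on every control array (0.480 to 0.503). That of Gapdh overlapped between the groups only because caNrf2 replicate 2 lay below control replicate 1. The other caNrf2 arrays lay above every control array. On the log2 scale, the 3' probe set of Gapdh read 13.3848, 13.3782 and 13.412 on the caNrf2 arrays, and its 5' probe set 13.5581, 13.5847 and 13.5709. On the control arrays they read 13.2929, 13.3092 and 13.2701, and 13.4924, 13.5232 and 13.4898. The part of RNA integrity in the results was not tested. Genes in the intensity range of the cell cycle genes were slightly lower on average in caNrf2 skin, although control replicate 3 lay within the caNrf2 range. Among the 11304 genes whose mean intensity lay within that of the cell cycle genes, from 88.9 to 6431, the median log2 fold change was -0.036. Of these, 63.9% were below 0. They were dimmer on average than the cell cycle genes, with a mean log2 intensity of 8.85 to 8.89 per array against 9.97 to 10.07. Over all 18193 genes the median was -0.0041 and 51.4% were below 0, with 48.6% above. No cell cycle gene had a group mean under 85.5, while 15 probe sets for genes of the Y chromosome, absent from female mice, reached at most 61.6.

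A dividing cell passes from G1 into S phase, in which the DNA is copied, and through G2 into mitosis. Cyclins bind and activate the cyclin-dependent kinases that start each step, and Cdkn1a (p21) and Cdkn1b (p27) hold these kinases back. Most of these genes are transcribed in waves. S phase genes are induced by E2F factors at the end of G1, and mitotic genes later by complexes that contain B-Myb and FoxM1 and recognise a short element called CHR, often together with NF-Y at CCAAT boxes. In newborn skin the dividing cells are mainly basal keratinocytes, matrix cells of the growing hair follicles and dermal fibroblasts. In whole skin, fewer cells of a type and less RNA per cell cannot be told apart.

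The S phase and mitosis genes differ in the words their promoters hold, a property that uses no measured value. RefSeq promoters of GRCm38.p6, from 250 bases before to 50 after the transcription start, were at hand for 30 of the 36 genes, 32 promoters in all. Mcm4, Ccna2, Aurkb, Kif20a, Ccnd1 and Ccne2 were not matched. The CHR (TTTGAA, either strand) was found in 12 of 16 promoters of G2 and mitosis genes (75%), in 1 of 11 of S phase genes (9.09%) and in 17.9% of all 32841 promoters. An E2F word (TTCCCGC or TTGGCGC, either strand) was found in 7 of 11 S phase promoters (63.6%), in 3 of 16 mitosis promoters (18.8%) and in 6.81% of all promoters. The CCAAT box (CCAAT, either strand) was found in 9 of 11 and 15 of 16, against 37.4% of all. The core of the antioxidant response element, the word bound by Nrf2 with small Maf proteins (TGACNNNGC, either strand), was found in 8 of the 32 promoters (25%), against 12.4% of all. A CCAAT box and an E2F word shared letters in 2 promoters, those of Ccnb1 and Mcm7. These are matches of letters, not measured binding sites.

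Shown here are the 250 bases before the start of 2 mitosis and 2 S phase genes, chosen with their words known, as examples of promoters that hold a CHR or an E2F word, among genes whose caNrf2 and control arrays did not overlap. Bub1, whose arrays did not overlap either, has neither word in its promoter. Capitals mark the CHR, CCAAT and E2F words on either strand, the reverse complement included. Top2a lies at chr11:99024190-99024439 (minus strand), Cdk1 at chr10:69352913-69353162 (minus strand), Cdc6 at chr11:98907901-98908150 (plus strand) and Rrm1 at chr7:102441445-102441694 (plus strand).
Top2a: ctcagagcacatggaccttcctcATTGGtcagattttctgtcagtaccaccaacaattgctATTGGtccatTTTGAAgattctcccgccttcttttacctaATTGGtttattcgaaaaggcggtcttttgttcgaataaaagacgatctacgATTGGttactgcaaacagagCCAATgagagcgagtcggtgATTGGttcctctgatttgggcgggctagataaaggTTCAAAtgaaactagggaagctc
Cdk1: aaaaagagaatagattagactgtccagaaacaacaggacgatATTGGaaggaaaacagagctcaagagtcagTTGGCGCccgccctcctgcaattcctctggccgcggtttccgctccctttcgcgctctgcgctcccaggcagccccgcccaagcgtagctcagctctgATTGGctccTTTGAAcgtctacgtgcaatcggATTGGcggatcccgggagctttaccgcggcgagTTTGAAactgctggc
Cdc6: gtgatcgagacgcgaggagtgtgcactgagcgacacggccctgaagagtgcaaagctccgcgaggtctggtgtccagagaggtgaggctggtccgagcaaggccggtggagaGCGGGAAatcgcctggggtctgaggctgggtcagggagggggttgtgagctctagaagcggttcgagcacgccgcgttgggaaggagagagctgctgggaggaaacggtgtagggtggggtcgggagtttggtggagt
Rrm1: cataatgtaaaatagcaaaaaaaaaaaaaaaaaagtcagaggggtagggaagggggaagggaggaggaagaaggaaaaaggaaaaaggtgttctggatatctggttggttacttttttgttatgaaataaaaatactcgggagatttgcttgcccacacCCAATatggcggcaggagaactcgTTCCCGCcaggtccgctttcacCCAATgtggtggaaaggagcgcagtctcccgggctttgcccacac

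In skin with active Nrf2 the RNA of the cell cycle genes was close to that of control skin. In limma with Benjamini-Hochberg adjustment over all genes, 0 of the 35 genes were higher and 0 were lower at an adjusted p under 0.05, against 2.26% of all genes called higher and 1.39% called lower (3.65% in all). At an unadjusted p under 0.05 there were 5 of 35 (14.3%), against 20.4% of all genes. These were Ccnd1, Top2a, Bub1, Cdc6 and Cdkn1b, each with a lower mean in caNrf2 skin. The 95% interval of the log2 fold change lay within 1.5-fold in either direction for all 35 genes, from a lowest bound of -0.41 (Top2a) to a highest bound of 0.25 (Cenpa). A 1.5-fold difference was therefore outside the 95% interval of every gene measured, while a p that misses the threshold does not show that smaller differences are absent.

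The small differences ran mostly downward. The log2 fold change was below 0 for 30 of 35 genes (85.7%), with a median of -0.064. All 11 genes whose groups did not overlap were lower in caNrf2 skin (31.4%), where 13.0% of all genes, and 18.1% of the genes in the same intensity range, did not overlap and were lower. None was higher without overlap, against 12.7% of all genes. In either direction the groups did not overlap for 25.7% of all genes. Averaged over the 35 genes, log2 intensity relative to the control mean was -0.076, -0.062 and -0.083 on the caNrf2 arrays and 0.012, -0.0017 and -0.010 on the control arrays. The genes of the same intensity range gave -0.027, -0.018 and -0.028 against 0.017, 0.0059 and -0.022. After a further quantile normalization the median of the 35 genes was -0.046, with 29 below 0, and after cyclic loess -0.033, with 27 below 0, where 47.9% and 46.5% of all genes were below 0.

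**Figure D1:**
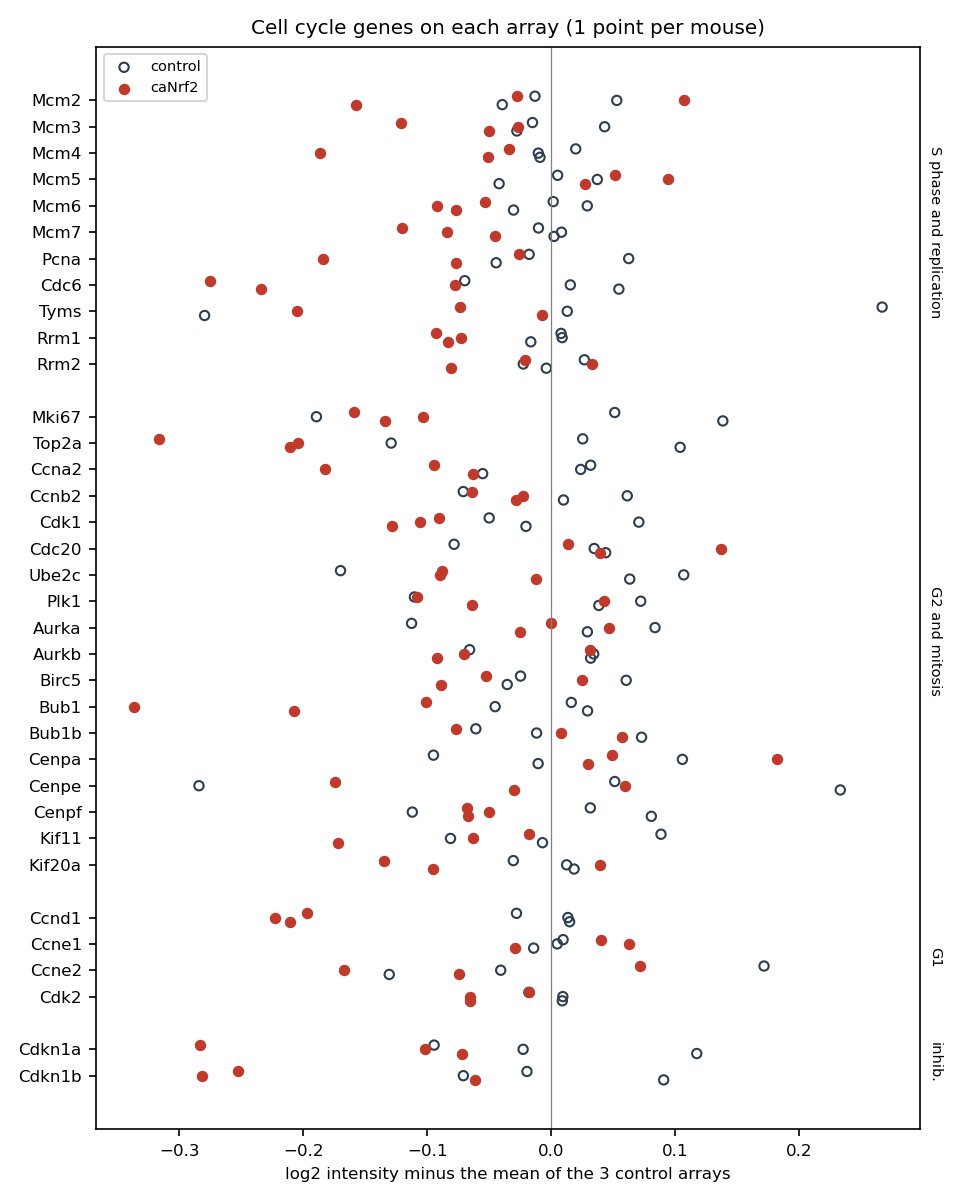
Log2 intensity of the 35 genes on each array, minus the mean of the 3 control arrays (x axis), by gene and role (y axis; G1, the cyclins Ccnd1, Ccne1 and Ccne2 with Cdk2; inhib., Cdk inhibitors). Filled points are the 3 caNrf2 mice and open points the 3 control mice. In Ccnd1 and Rrm1 the 3 caNrf2 points lie close together below the 3 controls, while Tyms, Cenpe and Ccne2 are spread widely among the controls.

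**Figure D2:**
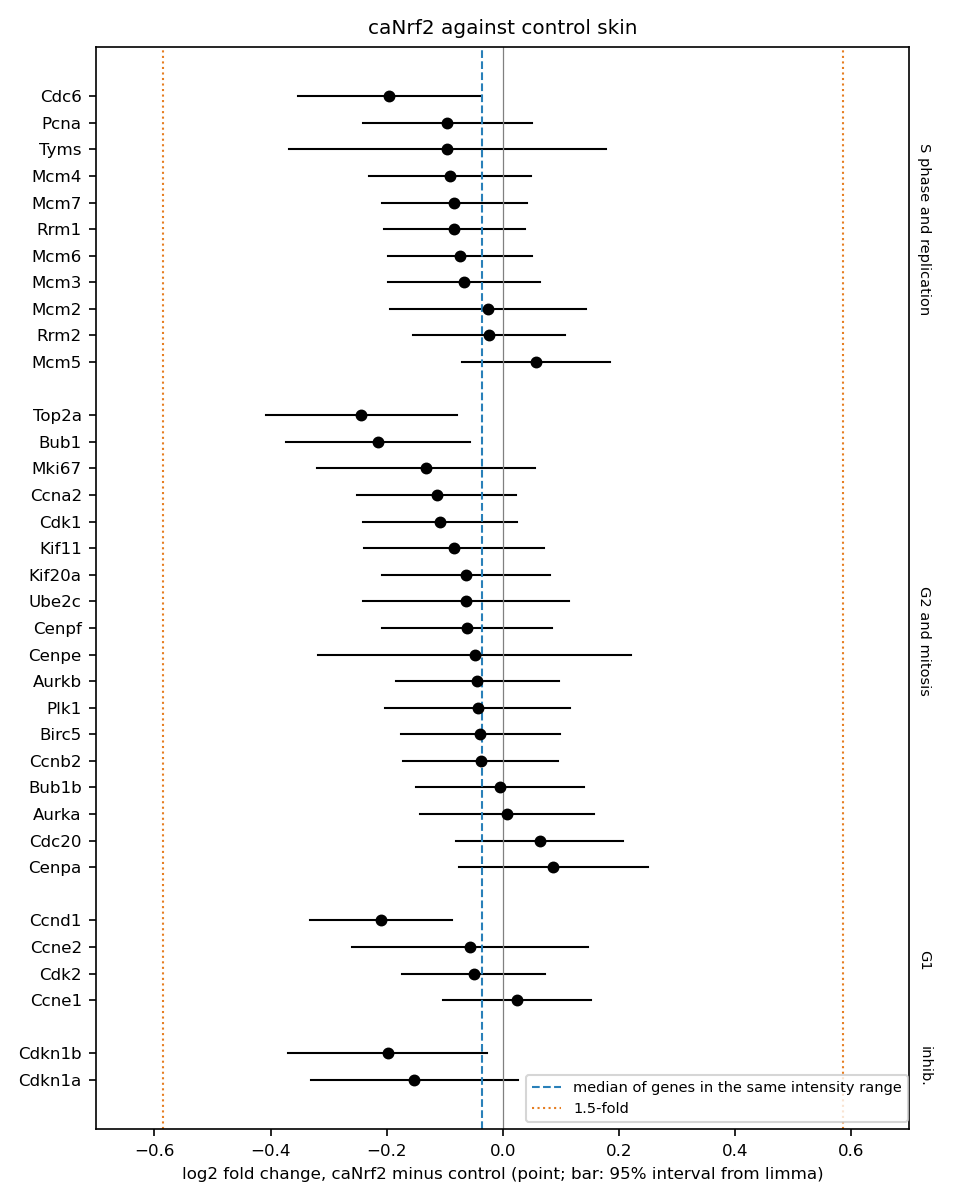
Log2 fold change of each gene, caNrf2 minus control (x axis; points), with its 95% interval from limma (bars). The dotted lines mark 1.5-fold, which no interval reaches, and the dashed line marks the median of -0.036 of the 11304 genes in the same intensity range, which most intervals cross.

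Genes of S phase lay slightly lower on average, with 10 of 11 below 0, 0 called and a median of -0.083. The MCM genes code for the 6 subunits of the helicase that opens the DNA at replication origins. Mcm7 read 3862, 3760 and 3666 in caNrf2 and 3992, 4009 and 3957 in control skin, a log2 fold change of -0.083 ± 0.055 (limma, adjusted p = 0.429). Mcm6 read 2180, 2158 and 2217 against 2252, 2347 and 2302, and Mcm4 1893, 1723 and 1915 against 1949, 1947 and 1988. In these 3 subunits every caNrf2 array was below every control array. Mcm3 (989, 1006 and 942 against 1005, 1056 and 1014) and Mcm2 (1041, 1251 and 1140 against 1130, 1205 and 1151) overlapped. Mcm5 had the opposite sign, with 2610, 2734 and 2653 against 2488, 2628 and 2570 and a log2 fold change of 0.058 ± 0.057. Its next probe set gave -0.034, and those of Mcm3, Mcm4 and Mcm6 gave 0.045, 0.031 and 0.069, so the sign of these 4 subunits depended on the probe set.

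Cdc6, which loads the MCM helicase onto origins, had the lowest estimate of the S phase genes. It read 251, 280 and 244 in caNrf2 and 306, 298 and 281 in control skin, a log2 fold change of -0.20 ± 0.07 (limma, adjusted p = 0.165). The caNrf2 arrays were all below the controls, although the nearest pair, 280 and 281, all but met. Pcna, the sliding clamp of the DNA polymerases, read 6294, 5844 and 6520 against 6437, 6932 and 6557 and overlapped. Rrm1 and Rrm2 code for the large and small subunits of ribonucleotide reductase, which makes deoxynucleotides. Rrm1 read 1532, 1543 and 1522 against 1605, 1633 and 1632, a tight separation of -0.083 ± 0.054 (limma, adjusted p = 0.415). Rrm2 read 2280, 2467 and 2376 against 2405, 2374 and 2457 and overlapped, at -0.023 ± 0.058. The thymidylate synthase Tyms read 90.7, 79.1 and 86.7 against 75.1, 92.0 and 110, so the control mice spread on either side of the caNrf2 mice. Its dimmer probe sets gave -0.37, -0.19 and 0.094.

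Genes of G2 and mitosis had 15 of 18 below 0, 0 called and a median of -0.055. Top2a, the topoisomerase that untangles DNA before chromosomes separate, read 1853, 1862 and 1722 in caNrf2 and 2305, 1962 and 2183 in control skin. Its log2 fold change of -0.24 ± 0.07 was the lowest of the 35 (limma, adjusted p = 0.109), and its groups did not overlap. Bub1, a kinase of the spindle checkpoint, read 528, 483 and 568 against 622, 591 and 617, also without overlap (-0.22 ± 0.07; adjusted p = 0.135). A dim second probe set of Bub1 gave -0.20 ± 0.07 and a second probe set of Top2a -0.19 ± 0.08, while a dim one of Top2a gave 0.044. Bub1b, the partner of Bub1 in the same checkpoint, read 643, 621 and 586 against 650, 613 and 592 (-0.0043 ± 0.064), and its groups overlapped. Its other probe sets gave -0.13 ± 0.09 and 0.038 ± 0.080, neither of which passed.

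The kinase Cdk1 drives entry into mitosis together with cyclins A and B. Cdk1 read 1332, 1353 and 1367 in caNrf2 and 1435, 1528 and 1406 in control skin (-0.11 ± 0.06; limma, adjusted p = 0.333). Ccna2, cyclin A2, read 1739, 1601 and 1702 against 1749, 1848 and 1858 (-0.11 ± 0.06; adjusted p = 0.327). Neither of them overlapped between the groups. Ccnb2, cyclin B2, did, with 1153, 1156 and 1124 against 1183, 1226 and 1119. The proliferation antigen Mki67 (Ki-67) read 2178, 2225 and 2141 in caNrf2 skin, within the wide range of 2630, 2096 and 2476 among controls (-0.13 ± 0.08; adjusted p = 0.404). Leaving out control replicate 1 gave -0.063, and leaving out control replicate 2 gave -0.23.

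The remaining mitotic genes overlapped between the groups. The kinases Plk1 (688, 741 and 667 against 739, 756 and 667) and Aurka (540, 567 and 549 against 561, 582 and 508), which build the spindle poles, gave -0.043 ± 0.071 and 0.0071 ± 0.067. Aurkb (423, 429 and 460 against 460, 461 and 430) and Birc5, survivin (894, 968 and 917 against 928, 992 and 935), both of the chromosomal passenger complex, gave -0.044 ± 0.063 and -0.039 ± 0.061. The motor Kif11 (403, 434 and 448 against 451, 429 and 482) and the cytokinesis motor Kif20a (470, 516 and 458 against 509, 507 and 492) gave -0.084 ± 0.069 and -0.064 ± 0.064. Other probe sets of Kif11 gave -0.27 ± 0.11 and -0.061 ± 0.074. Centromere proteins differed in sign. Cenpe (289, 307 and 261 against 346, 242 and 305) and Cenpf (603, 610 and 603 against 668, 585 and 646) gave -0.049 ± 0.12 and -0.062 ± 0.065. A second probe set of Cenpe gave -0.25 ± 0.12, and dim ones of Cenpf -0.20 ± 0.12 and -0.047 ± 0.098. None of these passed over all probe sets. Cenpa, the histone H3 variant of centromeres, had the highest estimate of the 35 at 0.087 ± 0.072, from 1314, 1460 and 1332 against 1278, 1385 and 1205. Its next probe set gave -0.052. Cdc20, an activator of the anaphase-promoting complex, gave 0.063 ± 0.064 (2543, 2720 and 2497 against 2550, 2534 and 2343), and its next probe set -0.016. Ube2c, the ubiquitin-conjugating enzyme of the same complex, read 2094, 1984 and 1987 against 2206, 2273 and 1877.

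Control mice differed from each other in a gene-dependent way. Control replicate 2 was the lowest control for 6 of the 18 mitosis genes, among them Mki67, Top2a, Cenpe and Cenpf, at -0.19, -0.13, -0.28 and -0.11 from the control mean. It was the highest control for 8 others, among them Plk1, Aurka and Ube2c, at 0.072, 0.084 and 0.11. Control replicate 3 was the lowest control for 10 of the 18, among them Ube2c at -0.17. The estimate of Top2a ran from -0.19 without control replicate 1 (limma, adjusted p = 0.328) to -0.31 without control replicate 2 (adjusted p = 0.0612), and was not called with any array left out.

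On the same arrays the S phase and mitosis genes had similar means. The mean log2 intensity of the S phase genes relative to controls was -0.076, -0.063 and -0.072 on the caNrf2 arrays, against -0.040, 0.021 and 0.018 on the control arrays. For the mitosis genes it was -0.072, -0.038 and -0.081 against 0.042, -0.010 and -0.032. The caNrf2 arrays thus lay below all control arrays for each group. The S phase mean minus the mitosis mean was -0.0068 ± 0.017 in caNrf2 skin (SD, n = 3; SD of 0.072 among controls), and the caNrf2 arrays (-0.025 to 0.0085) lay inside the control range (-0.082 to 0.050). The medians of -0.083 and -0.055 had no stable order. With the mean over all probe sets of a gene they were -0.052 and -0.064, and with the second brightest probe set -0.046 and -0.086. The mitosis median was also the lower with array weights (-0.067 and -0.079), without caNrf2 replicate 2 (-0.065 and -0.075) and, barely, without control replicate 3 (-0.0739 and -0.0753).

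**Figure D3:**
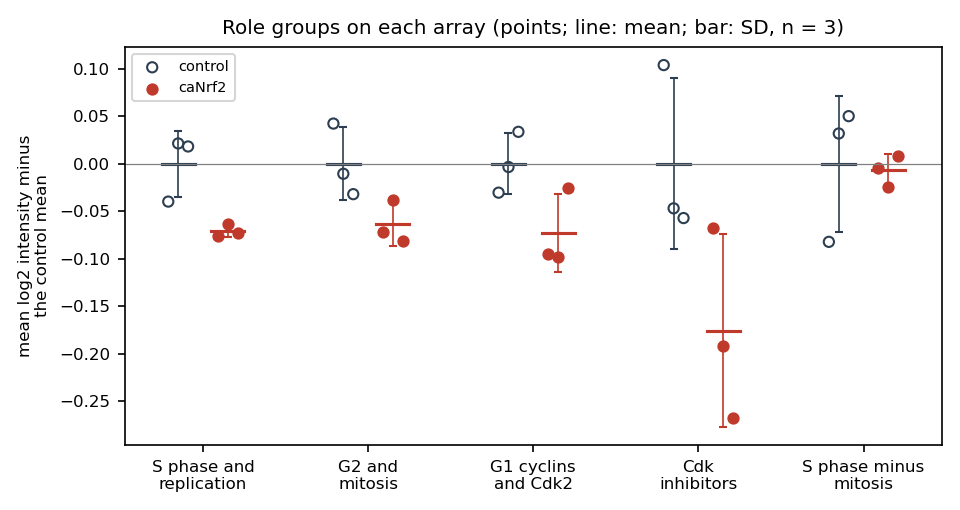
Mean log2 intensity of each role group on each array, minus the control mean (y axis), for control (open) and caNrf2 mice (filled), with the group mean (line) and SD (bar, n = 3). The rightmost pair shows the S phase mean minus the mitosis mean, where the caNrf2 points lie between the control points.

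Of the genes that govern the step into S phase, Ccnd1, cyclin D1, which couples growth signals to Cdk4 and Cdk6, was the nearest to a call. It read 1979, 1963 and 1998 in caNrf2 and 2314, 2312 and 2246 in control skin. Every caNrf2 array was below every control array by more than the spread within either group. The log2 fold change was -0.21 ± 0.05, with a 95% interval from -0.33 to -0.088 (limma, adjusted p = 0.0706). Its 2 other probe sets pointed the same way. The next brightest read 1931, 1713 and 1746 against 2271, 2297 and 2085 (-0.30 ± 0.07) and the dimmest 1095, 1056 and 1120 against 1404, 1275 and 1349 (-0.30 ± 0.07), again without overlap. Tested as single probe sets over all 34945 with 1 gene symbol, the 3 had adjusted p = 0.106, 0.0692 and 0.0483 (limma). Thus 1 of 78 probe sets of the cell cycle genes passed. The share passing over all 34945 was not counted, and by gene 3.65% of all genes were called. Ccnd1 as a gene passed in 5 of 16 alternative settings, at adjusted p from 0.0158 (intensity trend and robust variances) to 0.0486 (array weights), and not in the other 11, up to 0.221 without control replicate 1.

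The other genes of this step lay nearer to 0. Ccne1 (366, 390 and 384 against 369, 374 and 375) and Ccne2 (383, 359 and 424 against 369, 392 and 454), the E cyclins that activate Cdk2, gave 0.025 ± 0.057 and -0.057 ± 0.091 and overlapped. A second probe set of Ccne1 had the opposite sign, at -0.096 ± 0.068. Cdk2 read 962, 962 and 995 against 1013, 1014 and 995, a difference of -0.050 ± 0.055, and it counts among the 11 genes without overlap although its nearest arrays both round to 995. Whether Ccnd1 differed from these genes in its response was not tested.

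The kinase inhibitors had lower means in caNrf2 skin without a call. Cdkn1a read 2297, 2251 and 1985 against 2620, 2378 and 2262 (-0.15 ± 0.08; limma, adjusted p = 0.313), the highest caNrf2 array lying above the lowest control. Its second probe set read 1978, 1827 and 1806 against 2274, 2387 and 2122 without overlap (-0.27 ± 0.07; adjusted p = 0.0873 over all probe sets). Cdkn1b read 921, 791 and 807 against 1024, 915 and 948 (-0.20 ± 0.08; adjusted p = 0.188), with caNrf2 replicate 1 inside the control range. The upper bound of the 95% interval of the log2 fold change was 0.026 for Cdkn1a and -0.028 for Cdkn1b.

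**Figure D4:**
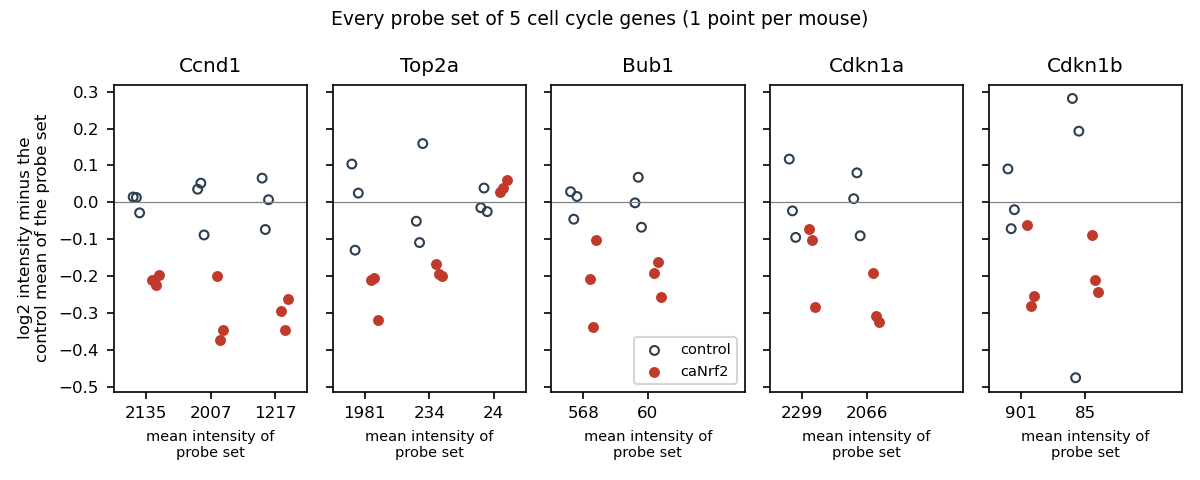
Log2 intensity minus the control mean (y axis) for every probe set of 5 genes, labelled by its mean intensity (x axis), for control (open) and caNrf2 mice (filled). All 3 probe sets of Ccnd1 separate the groups, the probe set of Top2a at a mean of 24 does not show the lower values of the brighter ones, and the dim probe set of Cdkn1b is spread widely.

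Probe sets of the same gene often disagreed in sign at this size of difference. Of 25 genes with several probe sets, 13 had all of them on the same side of 0 and 12 on either side. In Top2a, Rrm1 and Tyms, the only probe set above 0 was dim, averaging 24.5, 12.2 and 12.5 in caNrf2 skin. These means lie under the 61.6 that Y chromosome probe sets reached. Of the 70 probe sets with a mean intensity of at least 32, 59 were below 0. By gene, 57.6% of all genes with such a mean were below 0.

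Of 45 other replication genes measured, 0 were called, 41 were below 0 and the median was -0.070. The smallest p-values belonged to the checkpoint mediator Clspn (-0.25 ± 0.07; limma, adjusted p = 0.102), the recombination gene Brca2 (-0.21 ± 0.06; adjusted p = 0.107) and the origin subunit Orc2 (-0.24 ± 0.08; adjusted p = 0.124), none of which passed. Of 55 other mitosis genes, 0 were called, 45 were below 0 and the median was -0.046. Here the motor Kifc1 gave -0.41 ± 0.12 (adjusted p = 0.0891), the central spindle motor Kif23 -0.24 ± 0.07 (adjusted p = 0.113) and the centrosomal kinase Nek2 -0.20 ± 0.07 (adjusted p = 0.175). At an unadjusted p under 0.05 there were 8 of 45 (17.8%) and 6 of 55 (10.9%), below the 20.4% of all genes. Lower without overlap were 12 of 45 (26.7%) and 9 of 55 (16.4%). The shares were 13.0% of all genes and 18.1% of those in the intensity range of the cell cycle genes. Higher without overlap were 0 of 45 and 2 of 55 (3.64%), against 12.7% and 9.51%. The transcription factors that induce these waves, chosen after their values were seen, did not pass either, with -0.064 ± 0.062 for Foxm1, 0.082 ± 0.079 for Mybl2 (B-Myb) and -0.025 ± 0.056 for E2f1.

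Calls appeared among other regulators of G1 and of checkpoints. Among 33 such genes 1 rose and 1 fell, the remaining 31 did not pass (6.06% called, against 3.65% of all genes), and the list had 23 below 0 and a median of -0.075. Cdkn2b, the inhibitor p15 of Cdk4 and Cdk6, averaged 177 (SD 5.59, n = 3) in control and 254 (SD 1.36, n = 3) in caNrf2 skin and rose by 0.52 ± 0.06 on the log2 scale (limma, adjusted p = 0.000699). It passed in all 16 alternative settings, at 0.49 to 0.57. Atr, the kinase that senses stalled replication forks, fell from 236 ± 22.8 to 180 ± 8.54, a change of -0.39 ± 0.08 (adjusted p = 0.0294). Its other probe sets gave -0.35 and -0.29, and leaving out caNrf2 replicate 2, caNrf2 replicate 3, control replicate 1 or control replicate 3 removed the call, with an adjusted p of at most 0.100. So did a further quantile normalization, cyclic loess and the second brightest probe set (up to 0.156). The checkpoint kinase Chek2 did not pass (0.33 ± 0.09; adjusted p = 0.067). E2f6, with the next smallest p, gave 0.27 ± 0.07 (limma, adjusted p = 0.0758). Ccnd2, the sister of Ccnd1, gave -0.24 ± 0.07 (adjusted p = 0.0832). Both were chosen after their values were seen, and neither passed. Ccnd3 gave -0.077 ± 0.066, Cdk4 0.028 ± 0.061 and Cdk6 -0.0094 ± 0.070. Of 20 targets of p53, the inducer of Cdkn1a, Plk3 rose, from 480 ± 27.9 to 637 ± 19.3 (0.41 ± 0.06; limma, adjusted p = 0.00792), 0 fell and 19 did not pass, with a median of -0.020. This call made up 5% of the list, against 3.65% of all genes. Btg2 (-0.23 ± 0.06; adjusted p = 0.0868) and Ercc5 (-0.21 ± 0.06; adjusted p = 0.116) had the next smallest p-values.

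Markers of the cell types of skin gave the following values beside these results. All 15 measured markers of the hair matrix and precortex were below 0, with a median of -0.20. Of these, 11 did not overlap between the groups (73.3%, where 13.0% of all genes and 18.1% of those in the intensity range of the cell cycle genes did not overlap and were lower). The list had 1 call (6.67%, against 1.39% of all genes called lower), the signal Shh (-0.28 ± 0.06; limma, adjusted p = 0.0358), a call lost whichever of the 6 arrays was left out, at adjusted p from 0.0604 to 0.129, and with its second probe set (0.133). Their summed intensity ran from 20766 to 21661 in caNrf2 and from 23115 to 25086 in control skin, and no marker was near background, the lowest mean being 275. Relative to controls their mean log2 intensity was -0.16, -0.21 and -0.20 on the caNrf2 arrays and 0.047, 0.050 and -0.097 on the control arrays, so control replicate 3 stood apart from the other controls. Of 12 basal keratinocyte markers, 7 were below 0 and Krt15 fell (-0.30 ± 0.06; adjusted p = 0.0209; with caNrf2 replicate 1, caNrf2 replicate 3, control replicate 1 or control replicate 2 left out, between 0.0638 and 0.0824). Krt15 was the only call of the list (8.33%, against 1.39% of all genes called lower). Without overlap, 3 of the 12 were higher (25%, against 12.7% of all genes) and 2 lower (16.7%, against 13.0%). The higher ones were Itgb4 (0.33 ± 0.08), Itga3 (0.19 ± 0.07) and Krt14 (0.10 ± 0.05), none of which passed. The summed intensity of the 12 basal markers overlapped, at 40036 to 40367 against 40080 to 41316. Of 9 fibroblast markers, 8 were below 0 and 0 were called (median -0.058; summed intensity 81213 to 82675 against 83105 to 87455). The part of these compartments in the values of the cell cycle genes was not tested. No marker was called for dermal papilla (11 measured), endothelium (8), skeletal muscle (10) or erythroid cells (4). Ivl of 12 suprabasal, Lep of 5 adipocyte and Mlana, Mitf and Gpr143 of 7 melanocyte markers fell, and Cd207 of 12 leukocyte markers rose. These calls made up 8.33%, 20%, 42.9% and 8.33% of the lists, against 3.65% of all genes. Below 0 were 3 of 12 suprabasal (median 0.042), 2 of 5 adipocyte (0.022) and 4 of 12 leukocyte markers (0.067). All 7 melanocyte markers were below 0, with a median of -0.24. Of them, 6 did not overlap between the groups (85.7%, where 13.0% of all genes did not overlap and were lower). Ivl (-0.55 ± 0.08; limma, adjusted p = 0.0043) and Lep (-0.58 ± 0.07; adjusted p = 0.000946) passed in all 16 alternative settings. The calls of Cd207 (0.36 ± 0.08; adjusted p = 0.036) and of Mlana, Mitf and Gpr143 (-0.38, -0.36 and -0.32; adjusted p = 0.0463, 0.0456 and 0.0402) were lost without single arrays. Cd207 lost its call without any 1 array (up to 0.109), Mlana and Gpr143 without any but control replicate 3 (up to 0.158 and 0.147), and Mitf without any but caNrf2 replicate 1 (up to 0.130). The 3 melanocyte calls were also lost with a further quantile normalization, cyclic loess and the second brightest probe set, that of Mlana also with equal medians and that of Mitf also with array weights.

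**Figure D5:**
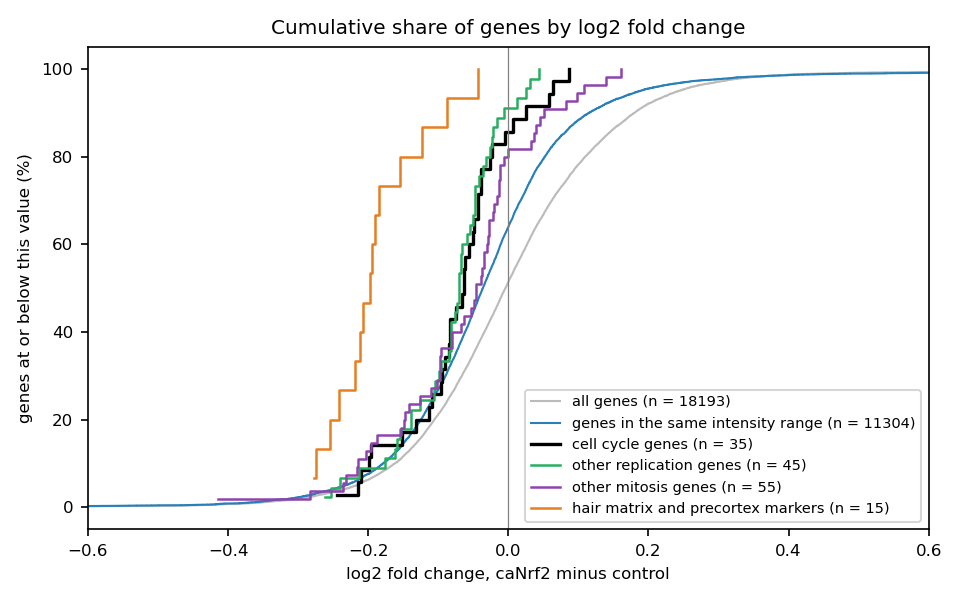
Cumulative share of genes (y axis, %) by log2 fold change, caNrf2 minus control (x axis, from -0.6 to 0.6), for all 18193 genes, the 11304 genes in the intensity range of the cell cycle genes, the 35 cell cycle genes, 45 other replication genes, 55 other mitosis genes and 15 hair matrix and precortex markers. The cell cycle, replication and mitosis curves run together with medians of -0.064, -0.070 and -0.046. They lie left of the genes in that intensity range (-0.036) and right of the hair matrix markers (-0.20). The genes in that range are dimmer on average than the 35 cell cycle genes. Their mean log2 intensity per array (8.85 to 8.89) is nearer to that of the other replication (8.93 to 9.06) and other mitosis genes (8.86 to 8.96).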

How the data were processed

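Whole back skin of 6 mice was measured on Affymetrix arrays of 45101 probe sets. The deposited values are linear intensities, summarised and normalized by the authors with RMA, per the submitters' processing notes. Log2 was taken of each intensity. Of the probe sets, 34945 carried 1 gene symbol, 932 several, 9211 none, and 13 were array controls with a symbol; only the first were used, and each gene was represented by its brightest one, giving 18193 genes. Groups were compared with limma 3.58.1 in R 4.3.3 (lmFit, eBayes, two-sided), with Benjamini-Hochberg adjustment over all genes and a call at an adjusted p under 0.05, and the code was tested on simulated data. All cell cycle genes measured are named, and from each list of other pathway genes up to 3 with the smallest p, and of marker lists those called. The basal markers Itgb4 and Itga3, which were not called, were chosen after their values were seen. The genes and lists were chosen with earlier results of these data known. The number of arrays, 3 per group, limits the precision. Promoters are those of RefSeq (GRCm38.p6). Pseudocount, filter, scaling, variance, probe set, block and left-out arrays were varied, and cyclic loess was added after seeing the data.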

Additional observations from a re-analysis of the deposited data

How the results depend on the processing

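Over 16 alternative settings, 560 values of the 35 cell cycle genes were recomputed, of which 29, in 15 genes, changed sign and 6 passed the threshold; the cause was not tested. In the main fit 252 of all genes were called lower. The count of cell cycle genes called lower was 1 (Ccnd1) with log2(value + 16), where 375 of all genes were called lower. It was also 1 (Ccnd1) with genes of a mean of at least 32 (344 genes called lower), array weights (358) and the mean over probe sets (258). With an intensity trend and robust variances it was 2 (Ccnd1 and Top2a), where 500 of all genes were called lower. It was 0 in every fit that left out 1 array. In those fits 226 to 316 of all genes were called higher and 72 to 196 lower. The lowest count in each direction came without control replicate 1. The median of the S phase genes ran from -0.089 to -0.064 with 1 array left out and that of the mitosis genes from -0.075 to -0.033. The S phase median was -0.052 with the mean over probe sets, -0.046 with the second probe set and -0.057 with cyclic loess. The mitosis median was -0.021 with a further quantile normalization and -0.013 with cyclic loess. Sign changes were as follows. With 1 array left out, the range was -0.093 to 0.040 for Mcm2, -0.051 to 0.0058 for Rrm2, -0.24 to 0.038 for Tyms, -0.049 to 0.049 for Aurka, -0.19 to 0.068 for Cenpe and -0.12 to 0.029 for Ccne2. Without caNrf2 replicate 1, Mcm2 was at 0.040 and Rrm2 at 0.0058. Without caNrf2 replicate 2, Aurka was at -0.012. Without caNrf2 replicate 3, Bub1b was at 0.032 and Cenpe at 0.014. Without control replicate 1, Bub1b was at 0.032 and Cenpe at 0.068. Without control replicate 2, Mcm2 was at 0.00040. Without control replicate 3, Tyms was at 0.038, Aurka at -0.049 and Ccne2 at 0.029. With the second probe set, Mcm3 was at 0.045, Mcm4 at 0.031, Mcm5 at -0.034, Mcm6 at 0.069, Rrm2 at 0.086, Cdc20 at -0.016, Cenpa at -0.052 and Ccne1 at -0.096. With the mean over probe sets, Mcm5 was at -0.026, Mcm6 at 0.026, Rrm2 at 0.014 and Ccne1 at -0.035. With cyclic loess, Mcm2 was at 0.0054, Aurkb at 0.0024 and Bub1b at 0.038. Bub1b was at 0.035 with quantile normalization and at 0.0032 with equal medians, and Aurka at -0.016 with array weights.

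Animals share replicate numbers, and whether the numbers pair them cannot be told from 3 arrays per group. Deviations of same-numbered arrays correlated at 0.033, 0.13 and 0.093 over genes, and those of differently numbered arrays at -0.15 to 0.070. Every array except caNrf2 replicate 1 correlated best with its own number. With the replicate number as a block, 353 genes were called higher, 236 lower and 0 of the 35 cell cycle genes. Of the other genes called and named, Shh, Mlana, Gpr143 and Mitf lost their call with the block, at adjusted p from 0.0619 to 0.0809 (limma).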
